A study of Mus musculus with 3 samples.

Results

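Kupffer cells are the resident macrophages of the liver. They sit inside the sinusoids, the capillaries between plates of hepatocytes, where they remove bacteria, worn red cells and dying cells from portal blood, and they depend on signalling through the CSF1 receptor. In whole liver they are outnumbered by hepatocytes, so their RNA is seen through a small set of genes that hepatocytes hardly use. The 9 genes described here belong to that set and were given as a list: Cd5l, C1qa, C1qb, Clec4f, Vsig4, Marco, Adgre1, Timd4 and Csf1r. All events filed under the Ensembl identifiers of these genes were taken, which gave 38, 41 and 33 of the 71716, 74243 and 74236 events in replicates 1, 2 and 3, and 9 of the 12293 genes that had a value.

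RNA sequencing was done on 3 libraries of normal liver, labelled as male, healthy, wild-type (WT) C57BL/6 mice, an inbred strain; the labels name no treatment and no age. The series concerns driver genes of liver cancer, and tumours were not analysed here. The 3 libraries form 1 group, so no contrast was possible and no test was made. The labels do not say whether they came from separate animals, so the spread between them may be technical. Values are FPKM, a unit that corrects fragment numbers for the length of the transcript and for sequencing depth and so puts genes of different length on a common scale.

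The libraries went against their label on sex. The largest listed event inside Xist, whose RNA coats and shuts down an X chromosome in females, was at 65.7, 53.9 and 46.4 FPKM in replicates 1, 2 and 3, and the Y chromosome genes Eif2s3y, Ddx3y, Kdm5d and Uty had no listed event. The tissue label was borne out by albumin (Alb), at 25367, 30592 and 27018 FPKM. The tables leave out many genes and list nothing at 0: Gapdh, which all cells use, was listed only in replicate 3, at 6.53 FPKM. A gene without a listing is therefore not shown to be silent. The total read counts are not in these tables, so the depth is unknown and no counting interval can be given.

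Sequences upstream of 3 of the genes are shown first, because their first exons were placed in the tables at or close to the annotated start and because the genes differ in how much they varied between the libraries. Cd5l and Vsig4 varied widely, and C1qb little. The 250 bases before the RefSeq start are given on the gene's own strand, 5′ to 3′, from RefSeq on GRCm38.p6, at chr3:87357631-87357880 for Cd5l (plus strand), chrX:96293439-96293688 for Vsig4 (minus strand) and chr4:136886201-136886450 for C1qb (minus strand). Capitals mark GAGGAA or its reverse complement TTCCTC, the core of the box bound by PU.1, a transcription factor needed for macrophage development.
Cd5l: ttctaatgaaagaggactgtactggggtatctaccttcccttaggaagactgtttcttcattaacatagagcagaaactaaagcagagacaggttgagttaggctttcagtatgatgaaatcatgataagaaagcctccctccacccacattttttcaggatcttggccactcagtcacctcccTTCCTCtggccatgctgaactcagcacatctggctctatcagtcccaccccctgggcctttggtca
Vsig4: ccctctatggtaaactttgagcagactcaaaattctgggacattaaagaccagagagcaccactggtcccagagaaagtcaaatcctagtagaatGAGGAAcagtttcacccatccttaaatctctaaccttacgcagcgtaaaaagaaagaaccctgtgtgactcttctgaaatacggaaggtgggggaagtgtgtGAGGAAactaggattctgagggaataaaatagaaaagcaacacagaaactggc
C1qb: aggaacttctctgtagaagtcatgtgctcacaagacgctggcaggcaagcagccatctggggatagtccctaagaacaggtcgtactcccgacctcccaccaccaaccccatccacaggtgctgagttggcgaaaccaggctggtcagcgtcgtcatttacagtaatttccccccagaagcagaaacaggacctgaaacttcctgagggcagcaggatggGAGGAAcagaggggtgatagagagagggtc

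The 6 letters begin at position -66 in Cd5l, at -155 and -53 in Vsig4 and at -30 in C1qb, counted from -1 for the base next to the start. Of the 9 genes 6 had an entry in the RefSeq table, and 4 of these 6 (Cd5l, Vsig4, C1qb and Marco) held a match on either strand. Among all 32851 upstream windows of the same length 23.3% did. A match describes the letters only; binding was not measured.

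All 9 genes were found in at least 2 of the 3 libraries, at levels that ran over more than an order of magnitude. Cd5l, C1qa, C1qb and Clec4f had means above 20 FPKM, Vsig4 and Csf1r lay in the middle, and Marco, Adgre1 and Timd4 were low. The mean was 1 FPKM or more for 9 of 9, against 73.6% of all genes with a value, and 20 FPKM or more for 4 of 9, against 14.4%. A listing in all 3 libraries was found for 8 of 9, against 82.3%. The median of the 9 genes was 3.40 on the log2(FPKM + 1) scale, against 2.11 for all genes with a value. Every one of the 9 was lowest in replicate 1, while this held for 37.5% of the genes whose mean was 1 FPKM or more, the genes called expressed below. With libraries scaled to equal Alb it was 8 of 9, against 22.2%. Both counts include Adgre1, which was not listed in replicate 1 and was taken there as 0. In these bulk samples, fewer Kupffer cells, less RNA per cell and a technical difference between the libraries cannot be told apart.

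**Figure D1:**
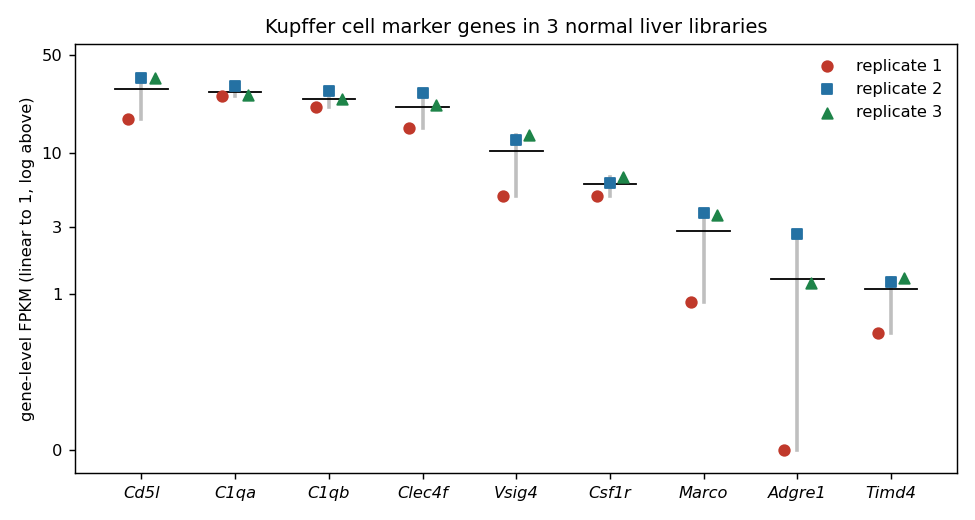
Gene-level FPKM (vertical axis, linear up to 1 and logarithmic above) of the 9 Kupffer cell marker genes, ordered by mean; points are the 3 libraries, black bars the means and grey lines the ranges. Replicate 1 is the lowest point for each gene, from 25.5 FPKM for C1qa down to no listing, drawn at 0, for Adgre1.

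The secreted proteins came first. Cd5l (ENSMUSG00000015854, chr3:87357881-87371073, plus strand) encodes AIM, a scavenger-receptor-like protein that macrophages release into plasma and that travels with IgM. It had 17.4, 34.2 and 34.2 FPKM in replicates 1, 2 and 3, a mean of 28.6 ± 9.71 (SD, n = 3). Replicates 2 and 3 were nearly equal, and replicate 1 was at 0.51 of their mean. In each library the gene was listed with just a first exon, at exactly the annotated position (chr3:87357881-87358029), and a last exon of the same FPKM, so a lone transcript structure was seen.

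C1qa and C1qb encode chains of C1q, the molecule that starts the classical complement pathway when it binds antibodies or dying cells; macrophages are its main source. C1qa (ENSMUSG00000036887, chr4:136895917-136898803, minus strand) had 25.5, 30.0 and 25.8 FPKM, a mean of 27.1 ± 2.51 (SD, n = 3). C1qb (ENSMUSG00000036905, chr4:136880129-136886187, minus strand) had 21.2, 27.9 and 24.3 FPKM, a mean of 24.4 ± 3.32 (SD, n = 3). Both varied less than Cd5l: replicate 1 was at 0.91 of the mean of the other libraries for C1qa and at 0.81 for C1qb. C1qa was above C1qb in every library, with C1qb at 0.83, 0.93 and 0.94 of it.

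The third C1q gene, C1qc, lies between them, and the 3 genes fill 18.7 kb of chromosome 4 on the same strand. It had 11.8, 15.8 and 8.02 FPKM and so was lowest in replicate 3, unlike its neighbours. First exons of C1qa (chr4:136898746-136898803) and C1qb (chr4:136886043-136886187) were at the annotated positions in all 3 libraries. The last exon listed for C1qb (chr4:136878773-136880869) ran 1356 bases past the annotated end of the gene, whereas that of C1qa ended exactly there.

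Next came the receptors for bacteria, sugars and complement. Clec4f (ENSMUSG00000014542, chr6:83644542-83656187, minus strand) encodes a galactose-binding C-type lectin that in mouse is made by Kupffer cells and hardly elsewhere. It had 15.1, 26.9 and 22.0 FPKM, a mean of 21.3 ± 5.95 (SD, n = 3). Replicate 1 was at 0.62 of the mean of the others, and its range overlapped those of C1qb and C1qa.

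Vsig4 (ENSMUSG00000044206, chrX:96247203-96293438, minus strand) encodes CRIg, the receptor through which Kupffer cells catch bacteria coated with complement C3 fragments. It had 4.95, 12.5 and 13.5 FPKM, a mean of 10.3 ± 4.68 (SD, n = 3), with replicate 1 at 0.38 of the mean of the other libraries. Marco (ENSMUSG00000026390, chr1:120474538-120505024, minus strand) encodes a collagen-like scavenger receptor for bacteria and particles. It had 0.94, 3.77 and 3.64 FPKM, a mean of 2.79 ± 1.60 (SD, n = 3). Replicates 2 and 3 of both genes lay close together, and the highest library was 2.73 times the lowest for Vsig4 and 4.0 times for Marco.

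Timd4 (ENSMUSG00000055546, chr11:46810800-46844332, plus strand) encodes TIM-4, a receptor for phosphatidylserine on dying cells that marks Kupffer cells of long residence. It had 0.75, 1.20 and 1.30 FPKM, a mean of 1.08 ± 0.29 (SD, n = 3). In replicate 1 its last exon was listed and its first exon was not.

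The other surface receptors complete the group. Adgre1 (ENSMUSG00000004730, chr17:57358691-57483527, plus strand) encodes the adhesion receptor whose antibody staining is widely used to find mouse macrophages. It was not listed in replicate 1 and had 2.64 and 1.19 FPKM in replicates 2 and 3. This value rests on an internal block of 3 exons between positions 57401905 and 57402861; a first exon was listed only in replicate 3, 481 bases upstream of the annotated start. Csf1r (ENSMUSG00000024621, chr18:61100598-61132149, plus strand) encodes the receptor kinase for CSF1 and IL-34, on which macrophages depend to survive. It had 4.99, 6.16 and 6.81 FPKM, a mean of 5.99 ± 0.92 (SD, n = 3). Replicate 1 was at 0.77 of the mean of the others. The last 871 bases of its last exon overlap that of Hmgxb3 on the other strand, which was at 2.10, 2.32 and 2.20 FPKM. The sources used here do not state that the libraries kept strand, so reads from the overlap may be shared between the genes.

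Ordered by mean, the genes ran Cd5l, C1qa, C1qb, Clec4f, Vsig4, Csf1r, Marco, Adgre1, Timd4. Of the 8 neighbouring pairs in this order, 2 had ranges over the 3 libraries that did not overlap: Clec4f above Vsig4 and Csf1r above Marco. With first exons alone only 1 pair was apart. Without replicate 1, 5 of the 8 pairs were apart. The position of Cd5l as the highest gene was not kept in each library, since it was above C1qa in replicates 2 and 3 and below it in replicate 1.

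The genes did not move by the same amount. Replicate 1 was under 0.75 of the mean of replicates 2 and 3 for 6 of 9 genes (Cd5l, Clec4f, Vsig4, Marco, Adgre1 and Timd4), against 17.7% of expressed genes, and under 0.5 for 3 of 9 (Vsig4, Marco and Adgre1), against 4.63%. Adgre1 counts in both because it was not listed in replicate 1 and was taken there as 0. Ratios within a library, which no scaling of a whole library can change, differed too. Cd5l was at 0.68, 1.14 and 1.32 times C1qa in replicates 1, 2 and 3. Vsig4 was at 0.19, 0.42 and 0.52 times C1qa, and Marco at 0.037, 0.13 and 0.14 times. Csf1r, at 0.20, 0.21 and 0.26 times C1qa, kept closer to it. Relative to C1q transcripts, Cd5l, Vsig4 and Marco were thus lower in replicate 1 than in either other library. These thresholds were chosen after the values had been seen.

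**Figure D2:**
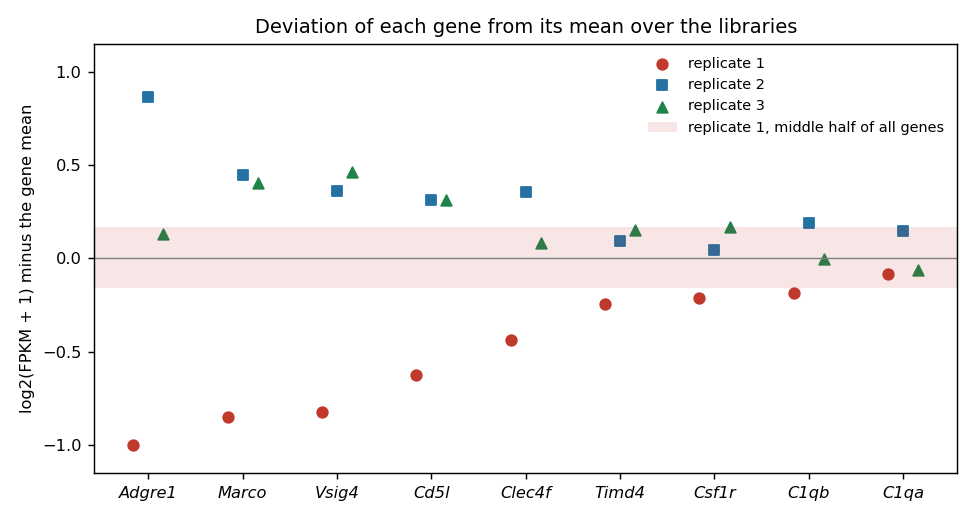
Deviation of each gene from its own mean over the 3 libraries, as log2(FPKM + 1) (vertical axis), with genes ordered by their deviation in replicate 1; the shaded band is the interquartile range of replicate 1 over all expressed genes, from -0.16 to 0.17. Replicate 1 lies below that band for 8 of the 9 genes, and C1qa, at -0.083, lies inside it. Adgre1, not listed in replicate 1, was taken there as 0 FPKM.

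The median deviation of the 9 genes was -0.44 in replicate 1, 0.31 in replicate 2 and 0.15 in replicate 3 on the log2(FPKM + 1) scale, where that of all expressed genes was within 0.011 of 0 in each library. Replicate 1 was nearer to 0 with first exons alone, at -0.29, and with last exons alone, at -0.24, while replicate 2 was at 0.19 in both cases and replicate 3 at 0.31 and 0.15, so only the low place of replicate 1 was kept and the order of the others was not. The median SD between libraries was 0.40 for the 9 genes and 0.21 for all expressed genes. With last exons alone it was 0.21 for both. Only Adgre1 changed there: with no last exon listed, it counted as 0 in every library and so as an SD of 0. The other members kept their values, so this fall, like the moved deviations with last exons alone, rests on Adgre1. Without replicate 1 the order was turned, with 0.088 for the 9 genes and 0.15 for all expressed genes, so the wide spread rests on that library. The highest library was at least 2 times the lowest, or the lowest was not listed, for 3 of 9 genes, against 17.8% of expressed genes.

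Other genes of resident macrophages were described from a list of 27, of which 26 had a value and 24 were expressed. Of these 24, 13 were lowest in replicate 1, against 37.5% of expressed genes. Another 5 were lowest in replicate 2 and 6 in replicate 3, and 4 were highest in replicate 1. In replicate 1, 8 were under 0.75 of the mean of the other libraries, against 17.7%. The 37.5% is also the background for the counts of lowest genes in the lists below. Among the most abundant, the protease Ctsc had 45.1, 72.9 and 64.7 FPKM, lysozyme (Lyz2) 32.3, 55.4 and 39.7 FPKM and the iron exporter Slc40a1 31.6, 48.5 and 40.4 FPKM. The folate receptor Folr2 had 3.06, 5.31 and 5.46 FPKM. The haemoglobin scavenger receptor Cd163 was not lowest in replicate 1, with 0.86 FPKM there, no listing in replicate 2 and 0.85 FPKM in replicate 3. Its mean was 0.57 FPKM, so it is not among the 24.

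Some pattern recognition genes of this list resembled Vsig4 and Marco; they were picked after their values were seen. Ficolin A (Fcna) had 7.05, 18.3 and 17.8 FPKM, the mannose receptor Mrc1 1.94, 5.96 and 5.62 FPKM, and the scavenger receptor Msr1 was not listed in replicate 1 and had 1.53 and 1.98 FPKM in the others. Mrc1 is also on the list of sinusoidal endothelial genes used below. Genes shared by many leukocytes, also picked after their values were seen, went both ways. Fcer1g, the Fc receptor gamma chain, had 12.9, 12.2 and 9.64 FPKM, and Ptprc, the leukocyte antigen CD45, had 3.39, 2.67 and 1.96 FPKM, so replicate 1 was the highest library for both. The integrin chain Itgb2 had 2.35, 2.83 and 3.09 FPKM and the phosphatase Ptpn6 7.98, 8.74 and 8.03 FPKM, with replicate 1 the lowest for both.

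The CSF1 receptor pathway was represented by 12 of 13 genes with a value, 9 of them expressed. Beside Csf1r, 6 of the other 8 were lowest in replicate 1. The ligand Csf1 had 2.78, 3.43 and 3.50 FPKM, and the second ligand, Il34, 0.86 FPKM, no listing and 0.16 FPKM. Spi1, which encodes PU.1, was steady at 2.98, 2.81 and 2.72 FPKM. Tyrobp, the signalling adaptor DAP12 of many leukocytes, had 10.4, 14.4 and 15.0 FPKM and was lowest in replicate 1. Receptor, ligand and PU.1 were thus of like magnitude, at a few FPKM each.

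Of 13 transcription factors of macrophages and Kupffer cells, 8 had a value and 5 were expressed, of which 1 was lowest in replicate 1. Id3, needed for Kupffer cell development but expressed in other cells too, had 38.3, 39.7 and 35.4 FPKM. Spic, a factor of iron-recycling macrophages, had 0.0058, 0.46 and 0.41 FPKM. Nr1h3, which encodes the sterol receptor LXR alpha, had no listing.

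The complement list of 19 genes had 12 with a value, all of them expressed; 9 are not among the Kupffer cell markers, and 5 of these were lowest in replicate 1. C3, the hepatocyte product that Vsig4 binds after cleavage, had 1143, 1572 and 1821 FPKM. Of 15 scavenger and clearance receptors all had a value; 12 of those outside the marker group were expressed, and 6 of these were lowest in replicate 1. Of 15 efferocytosis genes, which serve the uptake of dying cells, 13 had a value. Apart from Timd4, 10 were expressed, of which 4 were lowest and 5 highest in replicate 1. Rac1, the most abundant, had 42.5, 29.5 and 33.3 FPKM. The receptor kinases Axl, at 2.82, 3.24 and 3.08 FPKM, and Mertk, at 3.34, 3.88 and 4.48 FPKM, were above Timd4 in every library. Of 18 niche signals, by which neighbouring cells keep Kupffer cells in their state, 17 had a value and 12 were expressed. Of these, 6 were lowest and 2 highest in replicate 1. Gdf2 (BMP9) had 3.58, 5.19 and 4.48 FPKM, and the more abundant Eng had 13.0, 8.19 and 9.52 FPKM.

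Markers of other cells of liver and blood were read beside these. Of 12 sinusoidal endothelial genes 10 had a value, all of them expressed; 6 were lowest in replicate 1, and their sums were 70.1, 88.1 and 78.8 FPKM. Of 10 neutrophil genes 7 had a value, 2 of them expressed, with sums of 3.81, 9.55 and 8.35 FPKM; S100a9 was not listed in replicate 1, S100a8 had 2.11, 1.38 and 2.05 FPKM, and Ly6g, Mpo and Elane had no listing. Of 15 genes of monocytes and recruited macrophages 12 had a value and 6 were expressed, of which 2 were lowest in replicate 1. Ly6c2 had 1.32, 0.88 and 0.90 FPKM, Ccr2 0.20, 0.16 and 0.83 FPKM, and Cx3cr1 no listing. The sums of all monocyte genes with a value were 213, 255 and 255 FPKM, most of it from Fn1, at 157, 218 and 215 FPKM. Of the 6 expressed monocyte genes, 4 were highest in replicate 1. The share of all expressed genes highest there was not computed, so counts of highest genes have no background here.

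Of 11 dendritic cell genes 2 were expressed and 0 were lowest in replicate 1. The corresponding counts were 5 and 1 for 7 genes of capsular and peritoneal macrophages, 1 and 0 for 9 genes of T and NK cells, 3 and 1 for 7 genes of B and plasma cells, 8 and 3 for 10 genes of stellate cells and fibroblasts, and 5 and 3 for 6 hepatocyte genes. Summed over the genes with a value, B and plasma cell genes came to 11.5, 12.6 and 13.9 FPKM, stellate cell and fibroblast genes to 125, 154 and 148 FPKM and hepatocyte genes to 31773, 35790 and 34560 FPKM. These 3 sums, like those of endothelial, neutrophil and monocyte genes, were lowest in replicate 1, and their part in the result was not tested. The monocyte sum was mostly Fn1, and most expressed genes of that list were highest in replicate 1. The hepatocyte sum was mostly Alb. Most of the stellate cell and fibroblast sum was Dcn, at 61.4, 75.5 and 76.9 FPKM, and Ecm1, at 40.7, 54.7 and 51.8 FPKM. Of the 8 expressed genes of the stellate cell and fibroblast list, 4 were highest in replicate 1 and 3 were lowest there. The sums of dendritic cell genes, at 184, 150 and 148 FPKM, capsular and peritoneal macrophage genes, at 16.4, 9.78 and 23.7 FPKM, and T and NK cell genes, at 4.83, 3.93 and 5.31 FPKM, were not lowest there. Most of the dendritic cell sum was Bst2, at 181, 146 and 144 FPKM. No other list had replicate 1 lowest for all of its genes at 1 FPKM or more.

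**Figure D3:**
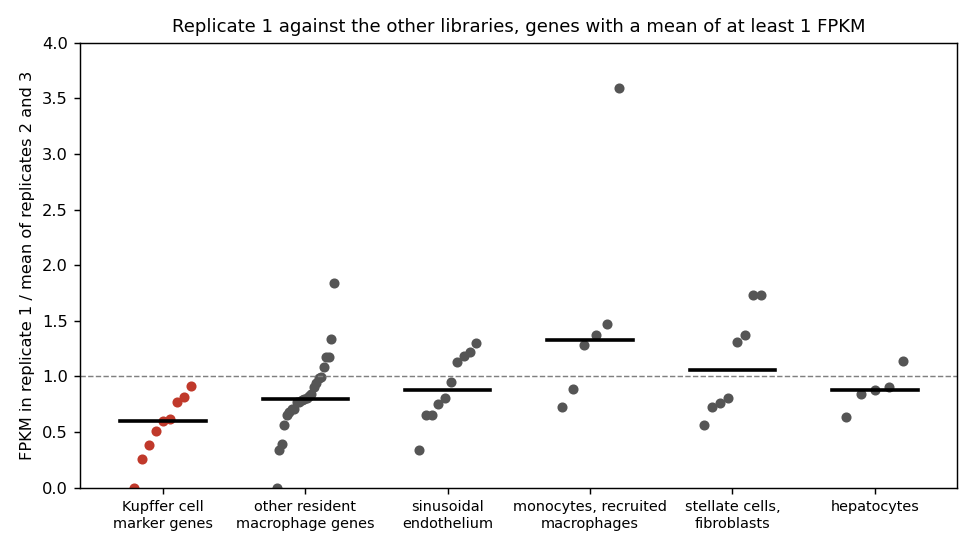
FPKM in replicate 1 divided by the mean of replicates 2 and 3 (vertical axis) for the genes of 6 lists that were expressed; each point is a gene and bars are medians. The median was 0.60 for the Kupffer cell markers, 0.80 for other resident macrophage genes, 0.87 for sinusoidal endothelium, 1.33 for monocytes and recruited macrophages, 1.06 for stellate cells and 0.88 for hepatocytes.

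Among 5015 other genes whose mean was 5 FPKM or more, those with the most similar deviations over the 3 libraries were sought by Euclidean distance. The nearest to the median of the 9 genes were Pon1, Crat, Fga, Apom and Palld, at distances from 0.021 to 0.039 log2 units. In replicates 1, 2 and 3 Pon1 had 317, 529 and 472 FPKM, Fga 1157, 1904 and 1705, and Apom 91, 152 and 133. Crat had 10.65, 18.9 and 16.5 FPKM and Palld 5.88, 10.7 and 9.73. None of these genes is on the macrophage lists used here, so the likeness was not confined to genes of those lists. With only 3 libraries such likeness is common: 172 genes lay within 0.2. Steady genes had many neighbours, with 1167 genes within 0.2 of C1qa, while Marco had 20 and Vsig4 19. The nearest to Marco was Fcna, at 0.028, and the nearest to Vsig4 was Ephx1, at 0.040.

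Start sites were compared with the annotation. Of the 9 genes, 7 had a listed first exon that matched an annotated one exactly in all 3 libraries (Cd5l, C1qa, C1qb, Clec4f, Vsig4, Marco and Csf1r), against 81% of expressed genes. Clec4f and Csf1r had a further first exon that is not annotated. The only first exon of Timd4 was the annotated one, listed in replicates 2 and 3. The first exon of Vsig4 (chrX:96293314-96293412) began 26 bases inside the annotated gene start, and that of Marco (chr1:120504669-120504756) 268 bases inside it. Csf1r is known to use an upstream start in trophoblast and a downstream start in macrophages. The sources used here do not say which annotated first exon belongs to which of these cells. No event was listed at the outermost annotated first exon (chr18:61100598-61101011). The main first exon lay 5254 bases downstream (chr18:61105852-61105998) and carried 72.3%, 100% and 90.6% of the first exon FPKM in replicates 1, 2 and 3. The rest was at a further first exon at chr18:61111687-61112094, which is not annotated as one.

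Clec4f had a second first exon in replicate 2 alone (chr6:83656358-83656397), 210 bases upstream of the annotated gene start and not annotated. There it carried 57.6% of the first exon FPKM (15.5 FPKM), and the annotated one (chr6:83655957-83656187) carried 11.4 FPKM. In replicates 1 and 3 the annotated exon had all of it, at 15.1 and 22.0 FPKM.

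Splice forms differed between libraries in 3 of the genes. In Clec4f an intron of 1382 bases (chr6, between exon ends at 83653300 and 83654683) was kept in transcripts of 4.09 FPKM in replicate 1 and 2.65 FPKM in replicate 2 and was spliced out in 9.37 and 24.3 FPKM, so that 30.4% and 9.84% kept it. In replicate 3 no transcript keeping it was listed, and 19.3 FPKM had it removed. The spliced form of Clec4f thus differed more between replicate 1 and the others than the gene as a whole. A neighbouring intron of 294 bases was kept in 0.93 and 1.87 FPKM in replicates 1 and 2 and not listed as kept in replicate 3. The kept shares were 9.94% and 7.69% with transcripts that keep the longer intron left out of the spliced part. Those transcripts also splice out the 294-base intron, so both shares are too high. The difference between the 2 shares therefore cannot be read as a difference between the libraries. In Csf1r an intron of 231 bases was kept in 11.0% and 9.43% of the FPKM in replicates 1 and 3 and not listed as kept in replicate 2.

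Timd4 had a skipped exon. Exon 6 of 9 in its annotated transcript (chr11:46837028-46837074, plus strand), all of it coding, was included in 0.61 FPKM and skipped in 0.59 FPKM in replicate 2, a share of 50.9%. In replicate 3 every listed transcript included it, at 1.30 FPKM, and in replicate 1 neither form was listed. Its 47 bases leave 2 over whole codons, so transcripts without it change the reading frame; the annotation holds no transcript that skips it. Vsig4 has the opposite case, an exon of 105 bases (exon 5 of 7 of Vsig4-201, chrX:96249875-96249979, minus strand) that is in 1 of its 2 annotated transcripts and keeps the frame. It was included in all Vsig4 transcripts listed, at 4.95, 12.5 and 13.5 FPKM. Both exons are shown from the GENCODE M21 transcripts on GRCm38, 5′ to 3′ on the gene's strand, because they are what separates the forms.
Timd4 exon 6: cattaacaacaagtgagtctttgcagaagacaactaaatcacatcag
Vsig4 exon 5: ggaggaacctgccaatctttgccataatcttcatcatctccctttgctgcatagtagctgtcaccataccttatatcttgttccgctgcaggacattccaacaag

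An exon of Marco that the tables list as skippable (chr1:120494044-120494262, 219 bases) and the block of 3 exons in Adgre1 were likewise found only as included. In the libraries where these genes were listed, the included forms of Marco equalled the gene's value, at 0.94, 3.77 and 3.64 FPKM. Shares from genes at about 1 FPKM, as Timd4 and Adgre1 were, rest on few fragments, whose number is unknown here.

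**Figure D4:**
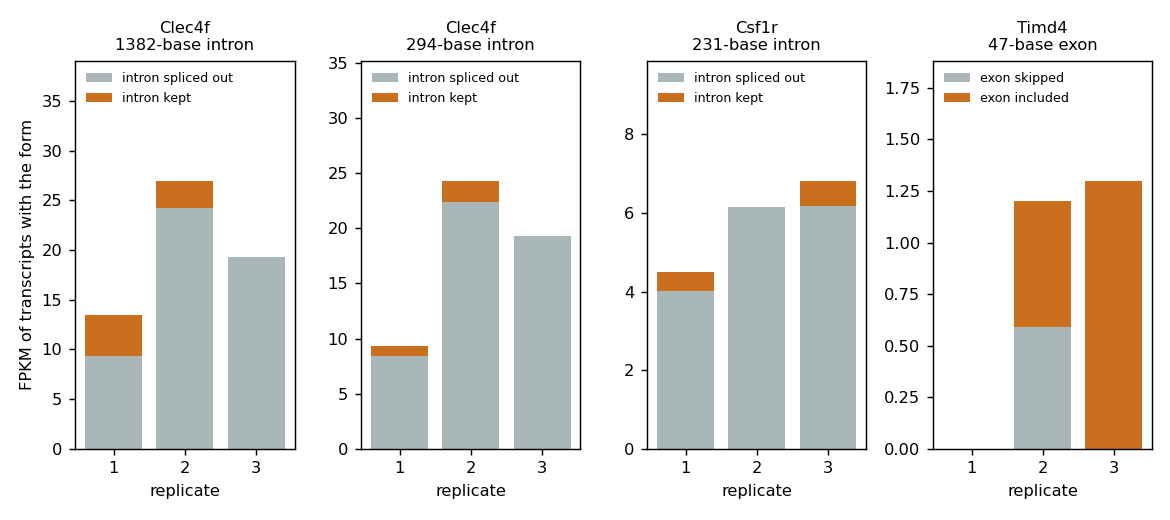
FPKM of transcripts (vertical axes, each starting at 0 with its own scale) that keep or splice out 3 introns and that include or skip an exon, in replicates 1 to 3. For the 294-base Clec4f intron, the spliced part leaves out transcripts that keep the longer intron. The kept part of the 1382-base Clec4f intron is largest in replicate 1, at 4.09 FPKM, and skipping of the Timd4 exon appears in replicate 2 alone, at 0.59 FPKM.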

How the data were processed

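The deposited tables list transcript-structure events (first and last exons, skipped exons, retained introns, alternative exon ends), each with an FPKM that the authors computed, per the file headers. Per the submitters' processing notes, DESeq2, HTSeq 0.6.1, HISAT2 2.0.1, cutadapt 1.9.1 and the build mm9 were used, with no roles given; which tool wrote the tables is not given in these sources. Of first exons 82.0%, 82.2% and 82.7% sat exactly on a GENCODE M21 first exon, and no more than 0.0056% once moved by 1000 bases, so positions were read as GRCm38.

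After removal of 1440 to 1519 identical rows per library, events were taken by gene identifier, on the gene's strand and overlapping its span. Gene-level FPKM was the largest of the first exon sum, the last exon sum and the largest internal event, and is a lower bound. Logs used a pseudocount of 1. The steps were tested on simulated data. Python 3.11.15 and pandas 2.3.3 were used.

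The members and the 16 further lists were chosen with earlier results of these data known. Genes named from a list are among its 4 highest or first 3, except where the text says otherwise or a gene is named for its role. Alternatives were other gene values, other event assignments, another pseudocount, scaling, and each library left out.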

Additional observations from a re-analysis of the deposited data

How the results depend on the processing

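Of 65 recomputed values for the group, 61 stayed within the SD between libraries or, for counts and spreads, within 1.5 times. The others were the number of neighbouring pairs with separate ranges, 2 as reported and 1 with first exons alone, the median spread, 0.40 log2 units as reported and 0.21 with last exons alone, and both of these without replicate 1. The fall with last exons alone came from Adgre1, which then counted as 0 in every library. Leaving out each library in turn gave 2 to 5 separate pairs and a median spread of 0.088 to 0.56. All 63 recomputed levels of single genes stayed within the gene's SD. For Adgre1 no fall could exceed it, because the SD, 1.32, was above the mean, 1.28 FPKM. The level of Adgre1 was 0 with first exons alone and with last exons alone. With first exons alone Clec4f fell from 21.3 to 16.2 FPKM, and 7 genes rather than 9 had a mean of at least 1 FPKM. The background spread ran from 0.15 to 0.25. Both other event assignments left the 9 genes' values as they were, and making library medians equal moved them by at most 0.0039 log2 units in the median, so these settings could not change the 9 of 9 genes lowest in replicate 1. The count was 7 with first exons alone (not Clec4f and Adgre1), against 42% of expressed genes, and 8 with last exons alone (not Adgre1), against 35.9%. Scalings added after seeing the data gave 8 for equal Alb (not C1qa), against 22.2%, and 9 for equal Ptprc, against 74%; Ptprc was highest in replicate 1, so that scaling lowers all genes there and its count says little. The median deviation in replicate 1 was then -0.32 and -0.79. Leaving out libraries moved the share of the main first exon between 71.2% and 100% for Clec4f and between 81.4% and 95.3% for Csf1r. No paired analysis was possible because the libraries form 1 group. Depth is unknown, which limits the genes near 1 FPKM most.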
